A study of Mus musculus with 12 samples.

Results

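The genes described here are 10 members of the Sox family of transcription factors: Sox2, Sox3 and Sox21 (SoxB), Sox4 and Sox11 (SoxC), Sox5 and Sox6 (SoxD), and Sox8, Sox9 and Sox10 (SoxE), out of 19057 genes with a probe that carries 1 gene symbol. Every probe whose symbol in the array's annotation is one of these names was taken, which gave 29 of 45281 probes. Of the 29, 22 probes of 9 genes had a detection p-value (the chance that a probe without target is as bright) under 0.01 on at least 1 array and were tested, and the 5 probes of Sox6 and 2 of the 4 probes of Sox11 were not. All 7 SoxB probes, 4 of 6 SoxC probes, 6 of 11 SoxD probes and all 5 SoxE probes were tested.

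The Sox genes encode transcription factors that bind DNA through a shared domain, the high-mobility-group box, and they are sorted into groups by the similarity of that domain. In the forming cortex, the SoxB1 factors Sox2 and Sox3 are known for keeping neural progenitors undifferentiated, whereas the SoxB2 factor Sox21 acts as a repressor that opposes them. The SoxC factors Sox4 and Sox11 are known from neurons that have left the cell cycle, the SoxD factor Sox5 from deep-layer projection neurons, and the SoxE factors from glial development. In these arrays the SoxB genes and Sox9 fell with age, and Sox4 was higher at E15.5 and E18.5 than at E12.5. Sox8 was higher at both later stages on 1 of its 2 tested probes only. Sox11 was higher at E15.5 but at E18.5 on 1 of its 2 tested probes only, where the result depended on the normalization. Sox5 was highest at E15.5, and Sox10 was detected at E18.5 only.

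RNA of the mouse embryonic cortex was measured on 12 Illumina BeadChip arrays, with 4 arrays for E12.5, 4 for E15.5 and 4 for E18.5 (E, day of gestation). The samples carry no allele or treatment in their labels, and strain and sex are not given there. The series' description gives 4 embryos per stage but does not say that each array is 1 embryo, so the p-values reflect how far these arrays spread, which may be technical. The arrays were run to profile transcription as the cortex develops. Values below are normalized signals on the log2 scale after background correction, with SD over 4 arrays, and each fold change compares stages within 1 probe. In bulk tissue, fewer cells of a type cannot be told apart from less RNA per cell.

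Between 15227 and 17472 probes were detected per array. E12.5 replicate 4 lay at -53.4 on the first principal component (78.9% of the variance), whereas replicates 1 to 3 lay at -91.7 to -88.3 and the E15.5 arrays at -8.89 to 7.40. Its summed signal of ventral interneuron markers (4 of 5 detected, Dlx5 on no array) was 522, against 96.0 to 107 on replicates 1 to 3. At E12.5, Dlx1, Dlx2 and Gad1 were detected on replicate 4 only and Lhx6 on no array, so the sums of replicates 1 to 3 are background. The choroid plexus sum of E12.5 replicate 4 (4 of 5 detected, Kl on no array) was 6601, against 14935 to 18691. On E15.5 replicate 4 the choroid plexus sum was 11629.8, against 300.2 to 345 on replicates 1 to 3 of that stage. Of the markers of the cortex, Emx1 was detected on all arrays, Neurod6 on 8 of 12 and Emx2 on none.

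RefSeq promoter sequence was at hand for 7 of the 10 genes. The 250 bases upstream of the listed start are shown for Sox2 and Sox21, which both fell in each interval, though by unlike amounts. They are also shown for Sox4 and Sox11, which both rose by E15.5, and for Sox5, which rose and then fell. They are written 5′ to 3′ on the gene's strand in build GRCm38.p6. Capitals mark the CCAAT box (CCAAT or ATTGG) and the Sox core motifs ACAAAG and ACAATG on either strand. None of these motifs contains another.
Sox2 promoter, chr3:34649745-34649994, strand plus: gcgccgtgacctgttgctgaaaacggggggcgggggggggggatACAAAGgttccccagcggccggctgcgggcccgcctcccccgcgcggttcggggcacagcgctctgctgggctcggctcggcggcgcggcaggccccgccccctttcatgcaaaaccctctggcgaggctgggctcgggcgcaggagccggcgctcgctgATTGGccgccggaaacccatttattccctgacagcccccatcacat
Sox21 promoter, chr14:118237031-118237280, strand minus: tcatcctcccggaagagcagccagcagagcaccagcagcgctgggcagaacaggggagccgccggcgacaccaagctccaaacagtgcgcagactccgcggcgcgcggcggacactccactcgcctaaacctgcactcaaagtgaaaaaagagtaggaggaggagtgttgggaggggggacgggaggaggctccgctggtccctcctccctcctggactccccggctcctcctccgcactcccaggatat
Sox4 promoter, chr13:28953700-28953949, strand minus: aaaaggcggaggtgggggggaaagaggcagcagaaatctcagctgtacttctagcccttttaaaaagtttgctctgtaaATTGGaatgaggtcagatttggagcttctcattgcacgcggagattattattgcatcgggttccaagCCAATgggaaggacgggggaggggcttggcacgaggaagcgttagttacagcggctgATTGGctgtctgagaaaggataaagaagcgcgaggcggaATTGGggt
Sox11 promoter, chr12:27342719-27342968, strand minus: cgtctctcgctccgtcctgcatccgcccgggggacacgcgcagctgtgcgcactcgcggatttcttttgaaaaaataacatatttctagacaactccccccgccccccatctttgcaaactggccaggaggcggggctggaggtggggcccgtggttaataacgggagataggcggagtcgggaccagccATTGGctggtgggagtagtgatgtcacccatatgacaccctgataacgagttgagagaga
Sox5 promoter, chr6:143947107-143947356, strand minus: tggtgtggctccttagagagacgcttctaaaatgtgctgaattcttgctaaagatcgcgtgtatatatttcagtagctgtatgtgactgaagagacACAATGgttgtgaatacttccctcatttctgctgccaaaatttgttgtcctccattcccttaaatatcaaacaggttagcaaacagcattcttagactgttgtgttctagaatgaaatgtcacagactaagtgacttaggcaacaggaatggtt
The Sox4 window held 4 CCAAT matches, the Sox2 and Sox11 windows 1 each, and the Sox21 and Sox5 windows 0. CCAAT was present in 33.8% of all 32851 promoter windows of this length. An ACAAAG match was present in the Sox2 window (16.5% of all windows have one) and an ACAATG match in the Sox5 window (10.7%). GC content was 72.0% for Sox2, 65.2% for Sox21, 58.0% for Sox11, 50.8% for Sox4 and 39.6% for Sox5, beside a median of 52.4% over all windows. The Sox2 window held 27 CpG dinucleotides and the Sox5 window 3, beside a median of 6 (quartiles 2 and 16). Such matches are a description of the letters and do not show a bound site.

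A call required an adjusted p under 0.01 and a change of at least 2-fold. Each gene is represented by its detected probe of highest mean. Between E12.5 and E15.5, 1 of the 9 tested Sox genes was called higher (Sox5) and 2 lower (Sox2 and Sox3), while 6.76% of all tested probes were called higher and 5.29% lower (12.1% together). Between E15.5 and E18.5, 1 was called higher (Sox10) and 3 lower (Sox3, Sox21 and Sox9, where the call of Sox3 rests on a fitted value below background), against 6.98% and 4.87% of all tested probes (11.8% together). Over the whole period, 1 was called higher (Sox10) and 4 lower (Sox2, Sox3, Sox21 and Sox9), against 15.3% and 13% (28.2% together). At the adjusted p alone, 4 were higher and 4 lower in the earlier interval (43.3% of all tested probes passed), 1 higher and 5 lower in the later one (41.2%), and 5 higher and 4 lower over both (63.3%). A change after E15.5 that differed from the change before it, by the contrast of both intervals at an adjusted p under 0.01, was found for Sox21, Sox4, Sox5 and Sox10, the last with a positive difference. Sox10 was undetected at E12.5 and E15.5 and was tested only through its E18.5 arrays, so its calls and its difference start from background. Of all tested probes 17.8% passed, 8.8% with a positive and 8.96% with a negative difference.

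The SoxB genes were lower at each later stage. Sox2 read 9.93, 9.84, 9.97 and 9.50 at E12.5, 9.08, 8.46, 8.78 and 8.87 at E15.5, and 8.24, 8.03, 8.24 and 8.17 at E18.5. The 3 stages did not overlap. Relative to E12.5, Sox2 fell 2.02-fold by E15.5 (log2 fold change -1.01 with SE 0.13, 4 arrays a stage, limma adjusted p = 3.03e-05) and 3.11-fold by E18.5 (-1.64, SE 0.13, adjusted p = 9.14e-08). The later interval, E18.5 versus E15.5, brought a fall of 1.54-fold (-0.63, adjusted p = 0.00132). A second Sox2 probe, ILMN_1248711, changed relative to E12.5 by -1.34 (SE 0.31) at E15.5 and by -1.95 (SE 0.31) at E18.5, and its E18.5 and E15.5 arrays overlapped (-0.61, adjusted p = 0.115). The 2-fold limit was met narrowly in the earlier interval: the log2 fold change of Sox2 was -0.97 without E12.5 replicate 1, -0.998 without replicate 2, -0.96 without replicate 3 and -0.90 without E15.5 replicate 2, each under 2-fold. It was also under 2-fold without background correction (-0.92), with an offset of 50 (-0.96) and with median scaling (-0.90).

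Sox3, also a SoxB1 factor and an X-linked gene, read 7.72, 7.46, 8.56 and 7.41 at E12.5, 6.63, 6.11, 6.48 and 6.54 at E15.5, and 4.83, 4.63, 4.92 and 4.84 at E18.5. It was detected on all arrays of the first 2 stages and on 0 of 4 at E18.5, where its detection p-values were 0.136 to 0.378. At E15.5 it was 2.54-fold below its E12.5 level (-1.34, SE 0.21, adjusted p = 0.000118). The E18.5 level is a bound. It was computed as the mean of the brighter stage over the mean, per E18.5 array, of the higher of the lowest detected signal and the probe's own. With the background correction used here, Sox3 at E18.5 was at least 4.51-fold lower relative to E12.5 and at least 1.78-fold lower relative to E15.5. On the log2 scale these bounds are falls of 2.17 and 0.83, and they depend on the correction. The log2 change relative to E12.5 was -1.72 without background correction and -2.05 with an offset of 50, both smaller falls than the bound. The limma adjusted p-values, 2.23e-08 and 2.11e-05, belong to the fitted log2 changes of -2.98 and -1.64, not to these bounds. The bound for the later interval is under the 2-fold limit, and the fitted log2 fold change of -1.64 became -0.80 without background correction and in the authors' processed values and -0.97 with an offset of 50, none of them called. In the earlier interval the change was -0.92 without background correction, also under 2-fold. The second Sox3 probe was detected on 3 arrays at E12.5 and on none later. With the same background correction, it was at least 1.504-fold lower at E15.5 relative to E12.5. Its fitted log2 change there was -1.21 (limma adjusted p = 0.000826).

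Sox21 read 11.81, 11.67, 11.59 and 11.53 at E12.5, 11.28, 10.87, 11.16 and 11.11 at E15.5, and 9.67, 9.71, 9.82 and 9.65 at E18.5, again with no overlap. The drop was 1.46-fold in the earlier interval (-0.54, SE 0.10, adjusted p = 0.000393) and 2.63-fold in the later one (-1.39, SE 0.10, adjusted p = 8.94e-08), or 3.83-fold over both. The later change minus the earlier one was -0.85 (SE 0.17, limma adjusted p = 0.00226), which gives a larger fall after E15.5 than before it on this probe. With the mean over the probes of Sox21 in its place, the difference was -0.43 (adjusted p = 0.0673). On the single probe it missed the threshold of 0.01 without E15.5 replicate 1 (adjusted p = 0.012) and without E15.5 replicate 3 (0.0106). A second Sox21 probe, ILMN_3163306, changed by -0.67 and then by -1.33, and its interval difference was -0.67 (adjusted p = 0.037). The remaining Sox21 probe was detected on 2 arrays, both at E12.5.

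**Figure D1:**
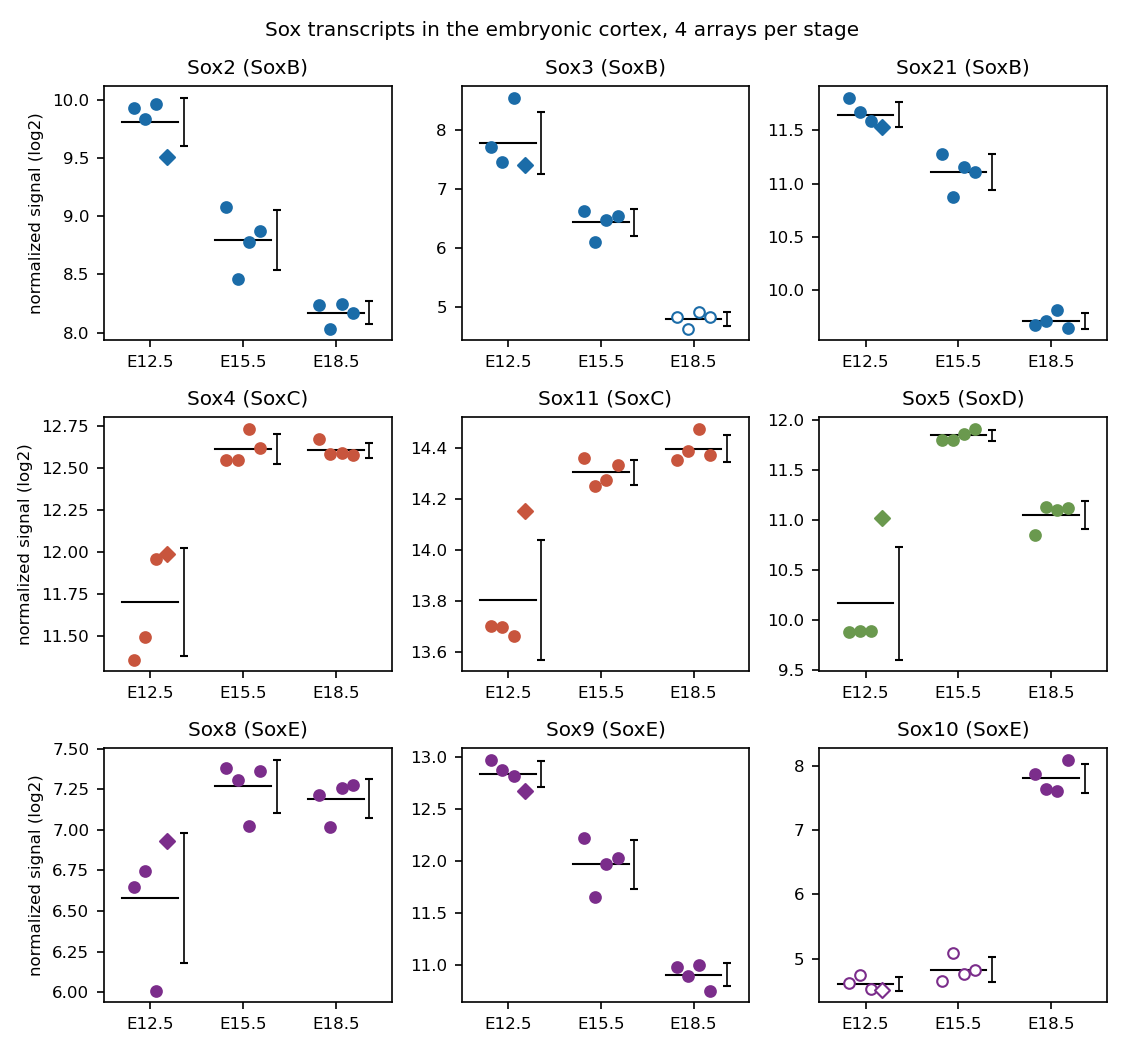
Normalized signal (log2, y axis, its own range in each panel) of the 9 detected Sox genes on every array of the 3 stages, with a line at the mean and an error bar of 1 SD (n = 4 arrays). Diamonds mark E12.5 replicate 4 and open symbols a stage at which no array detected the gene; Sox5 on the diamond is at 11.02, against 9.88 to 9.89 on replicates 1 to 3.

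Among genes known from radial glia, the progenitors in which SoxB1 factors act, 8 of 10 were tested. By E18.5, 7 had fallen and 1 had risen at an adjusted p under 0.01, while 33.3% of all tested probes were lower and 30% higher by the same rule. The median log2 fold change of the 8 was -2.01, against -0.07 over all tested probes. The intermediate filament genes Vim and Nes changed by -1.81 and -2.37 on the log2 scale, the Notch target Hes5 by -2.10 and the receptor Notch1 by -1.93. Vim changed by -0.08 in the earlier interval (adjusted p = 0.44) and by -1.73 in the later one. The member that rose was Pou3f3, a POU-domain factor, at 0.73.

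Sox4 and Sox11 of the SoxC group were higher at E15.5 than at E12.5, and at E18.5 the probes of Sox11 differed. Sox4 read 11.36, 11.50, 11.96 and 11.99 at E12.5, 12.55, 12.55, 12.73 and 12.62 at E15.5, and 12.67, 12.58, 12.59 and 12.57 at E18.5. E12.5 lay below both later stages, which overlapped each other. The rise by E15.5 was 1.88-fold (0.91, SE 0.13, adjusted p = 5.84e-05), under the 2-fold limit, and the log2 fold change was 1.001 without E12.5 replicate 4. E18.5 versus E15.5 gave -0.01 (95% interval -0.29 to 0.27, adjusted p = 0.97). The second probe of Sox4, ILMN_2893417, changed by 0.83 and then by 0.02. The difference between the intervals was -0.92 for Sox4 (SE 0.23, adjusted p = 0.00783). It held without E12.5 replicates 1, 3 or 4 and rose above 0.01 without any 1 of the other arrays, E12.5 replicate 2, each E15.5 array and each E18.5 array (adjusted p = 0.0123 to 0.0326). It also missed 0.01 with cyclic loess normalization (0.0197), with no detection filter (0.0149) and with the replicate number as a block (0.0112).

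Sox11 read 13.70, 13.70, 13.66 and 14.15 at E12.5, 14.36, 14.25, 14.27 and 14.34 at E15.5, and 14.36, 14.39, 14.48 and 14.37 at E18.5. The highest of the E12.5 arrays is replicate 4. At E15.5, Sox11 was 1.42-fold above its E12.5 level (0.50, SE 0.10, adjusted p = 0.00113) and 1.51-fold higher at E18.5 (0.60, adjusted p = 0.000162), on the brighter of its tested probes. Without E12.5 replicate 4 these log2 fold changes were 0.62 and 0.72. Median scaling gave 0.51 (limma adjusted p = 0.000933) and 0.33 (0.013) on this probe, so its higher level at E18.5 missed 0.01. E18.5 versus E15.5 was then -0.18 (limma adjusted p = 0.178). The probes of Sox11 differed after E15.5. The brighter one gave 0.09 for E18.5 versus E15.5 (adjusted p = 0.474), whereas ILMN_2616196 fell by 0.39 (SE 0.09, adjusted p = 0.00285), and at E18.5 it was 0.07 above E12.5 (adjusted p = 0.497). The interval difference was -0.41 on the first (adjusted p = 0.107, or 0.00475 without E12.5 replicate 4) and -0.84 on the second (adjusted p = 0.00145).

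All 8 genes of young neurons in the comparison list were tested. By E15.5, 6 had risen and 1 had fallen, where 21.7% of all tested probes were higher and 21.6% lower at an adjusted p under 0.01. Stmn2, a regulator of microtubules, rose by 2.18 (SE 0.27), Dcx, the microtubule-associated doublecortin, by 1.96 (SE 0.25), and the neurogenic factor Neurod2 by 1.85 (SE 0.24). Map2, a dendritic microtubule protein, rose by 0.55 in this interval and by 0.56 in the next. The gene that fell was Tead2, at -0.97, a TEAD factor known as a Sox4 and Sox11 target. In the later interval 2 of the 8 rose and 1 fell, near the shares of all tested probes (19.9% higher and 21.3% lower). Neurod2 changed by -0.05 (adjusted p = 0.87).

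**Figure D2:**
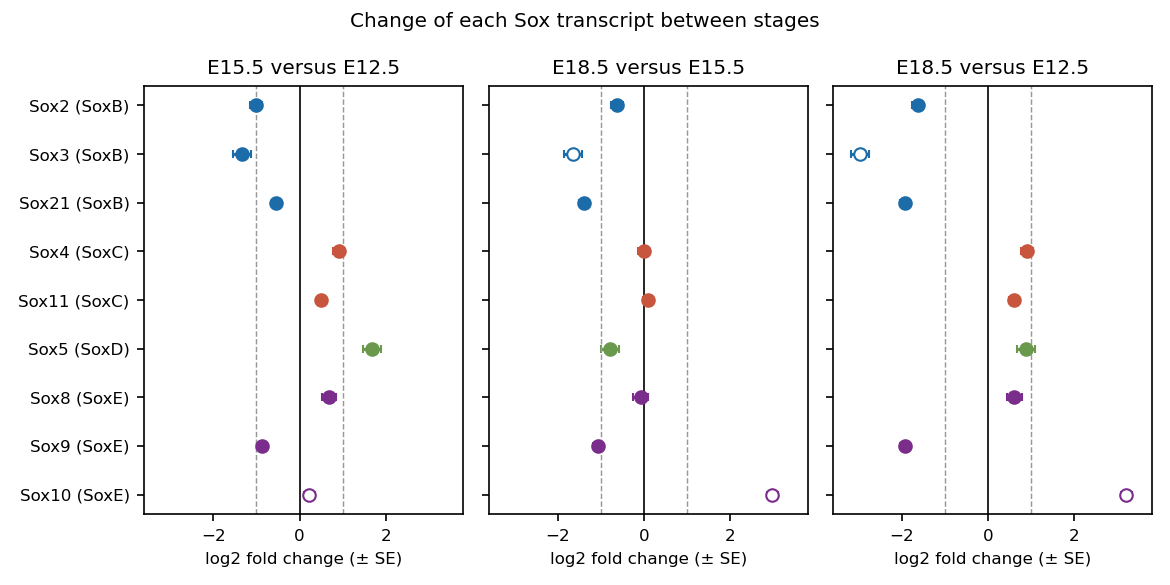
Log2 fold change (x axis, bars are SE, n = 4 arrays per stage) of each detected Sox gene in the 3 comparisons between stages, coloured by Sox group, with dashed lines at 2-fold. Open symbols involve a stage at which no array detected the gene; SoxB genes and Sox9 lie left of 0 in every panel, and Sox10 lies near 3 in both comparisons with E18.5.

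Sox5, the SoxD factor that in mice times the production of deep-layer neurons, rose and then fell. Its values were 9.88, 9.89, 9.89 and 11.02 at E12.5, 11.80, 11.81, 11.86 and 11.92 at E15.5, and 10.85, 11.13, 11.11 and 11.13 at E18.5. E12.5 replicate 4 lay within the E18.5 range, and the E15.5 arrays lay above all others. By E15.5, Sox5 was 3.20-fold above its E12.5 level (1.68, SE 0.21, adjusted p = 1.95e-05), and the log2 fold change was 1.96 without E12.5 replicate 4. Its E18.5 level was then 1.73-fold below that of E15.5 (-0.79, SE 0.21, adjusted p = 0.00546). The later fall kept an adjusted p under 0.01 when any 1 E12.5 array was left out, but not when any 1 array of either later stage was (0.0105 to 0.019). E18.5 stayed 1.84-fold above E12.5 (0.88, adjusted p = 0.00165, the arrays overlapping), or 1.17 on the log2 scale without E12.5 replicate 4, which is above 2-fold. The difference between the intervals was -2.47 (SE 0.36, adjusted p = 0.000255) and ranged over -2.76 to -2.37 with 1 array left out.

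The other probes of Sox5 show how far the pattern extends. ILMN_2631143, ILMN_1244213 and ILMN_2610223, detected on all arrays, rose by 1.68, 1.73 and 1.32 by E15.5 and then changed by -0.82, -0.78 and -0.69. On each of them E12.5 replicate 4 was the highest E12.5 array, at 11.05, 9.28 and 7.16. The 2 dimmest probes were detected on 1 array each at E12.5. ILMN_1213910 changed by 0.85 and -0.58 (adjusted p = 0.0804 and 0.226), and ILMN_2580904 by 0.05 and 0.30 (adjusted p = 0.777 and 0.0873). Thus 4 of 6 Sox5 probes passed in each interval.

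Sox6, the other SoxD gene, known from progenitors and from interneurons of ventral origin, was not detected. Its 5 probes lay between 4.45 and 5.74 over the 12 arrays. The lowest of their detection p-values was 0.0107, for ILMN_1252898 on E12.5 replicate 3, and the highest 0.901. No fold change is given for it. These probes show only that Sox6 was not above background here.

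**Figure D3:**
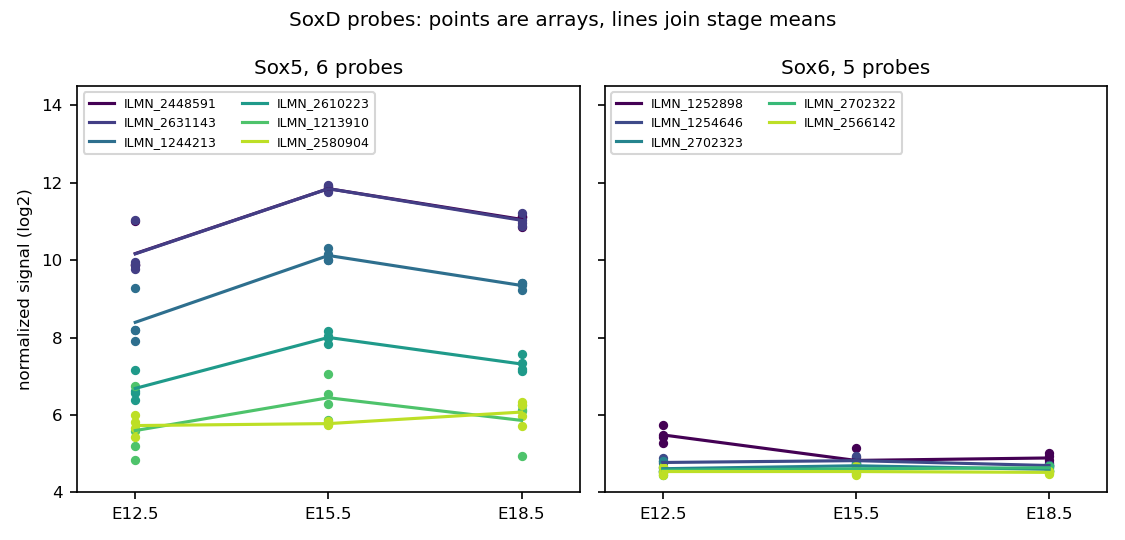
Normalized signal (log2, y axis) of the 6 Sox5 probes and the 5 Sox6 probes at each stage, with points for arrays and lines through stage means. The 4 brighter Sox5 probes peak at E15.5, 2 dimmer ones do not separate the stages, and all Sox6 probes stay between 4.45 and 5.74.

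Of 6 genes of deep-layer neurons, 5 rose by E15.5 and 0 fell, beside 21.7% higher and 21.6% lower among all tested probes. In the later interval 1 rose (Ldb2, a LIM-domain-binding cofactor, by 1.72) and 1 fell (Fezf2, a zinc finger factor of corticospinal neurons, by 0.71), at an adjusted p under 0.01, where 19.9% of all tested probes were higher and 21.3% lower. Fezf2 had risen by 0.48 in the earlier interval, and its interval difference was -1.19 (SE 0.13, adjusted p = 3.20e-05). Bcl11b, which encodes Ctip2, changed by 1.13 and then by -0.08, and the layer VI factor Tbr1 by 0.63 and then by -0.01. Of 7 interneuron genes 6 were tested, and all 6 had risen by E18.5, with a median log2 fold change of 4.52 over the whole period, where 30% of all tested probes were higher and 33.3% lower. Sst, the neuropeptide somatostatin, Dlx1, Gad1, an enzyme of GABA synthesis, and Dlx2 were each detected on 1 E12.5 array and on all later arrays. Lhx6, also among the 6, was detected on 0 arrays before E18.5 and on 4 there. The count of 6 and the median thus rest on changes that start at or near background. At E12.5, Dlx1 read 8.04 on replicate 4 and 4.58 to 4.67 on replicates 1 to 3.

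The SoxE genes changed in different directions. Sox9, required for neural stem cells and later for astrocytes, read 12.97, 12.88, 12.81 and 12.67 at E12.5, 12.22, 11.65, 11.97 and 12.03 at E15.5, and 10.99, 10.90, 11.00 and 10.76 at E18.5. No stages overlapped. The fall was 1.82-fold by E15.5 (-0.87, SE 0.12, adjusted p = 3.69e-05), 2.08-fold from there to E18.5 (-1.06, SE 0.12, adjusted p = 5.47e-06), and 3.79-fold in all. The later fall was under 2-fold without E15.5 replicate 1 (-0.97) and with cyclic loess normalization (-0.87). Its intervals were not found to differ (-0.19, SE 0.20, adjusted p = 0.511). The second probe of Sox9, ILMN_3007428, changed by -1.005 and then by -1.16. Cartilage, another tissue that makes Sox9, had 1 of 5 markers detected, Col2a1, with Col9a1, Acan, Matn1 and Comp on no array. The cartilage sum is therefore the signal of Col2a1 alone and does not stand for the list. It was between 763 and 1334 at E12.5, between 461 and 688 at E15.5, and between 92.8 and 111 at E18.5. A part of cartilage in the result was not tested.

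Sox10, the SoxE factor of oligodendrocyte precursors and neural crest derivatives, has 1 probe. It read 4.62, 4.74, 4.53 and 4.51 at E12.5 and 4.64, 5.09, 4.76 and 4.81 at E15.5, undetected on all 8 arrays. The E18.5 arrays read 7.88, 7.65, 7.61 and 8.10, all detected. With the background correction used here, the E18.5 level was at least 4.04-fold higher relative to E15.5 and at least 4.07-fold higher relative to E12.5. On the log2 scale these bounds are 2.01 and 2.02. Without background correction the log2 changes were 1.72 and 1.89, under both, so the bounds depend on the correction. The limma adjusted p-values, 1.80e-09 and 1.28e-10, belong to the fitted log2 changes of 2.98 and 3.21, not to these bounds. The fits use undetected values at E12.5 and E15.5, and the probe was tested only through its E18.5 arrays. The uncorrected signals were 293 to 377 at E18.5, against 78.5 to 93.9 at E15.5. Erbb3 and Foxd3, the markers of neural crest and Schwann cells used here, were detected on no array.

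Sox8, which acts with Sox9 and Sox10 in glial cells, read 6.65, 6.75, 6.01 and 6.93 at E12.5, 7.38, 7.30, 7.03 and 7.36 at E15.5, and 7.22, 7.02, 7.26 and 7.28 at E18.5. The E12.5 arrays lay below both later stages. By E15.5 it was 1.61-fold higher (0.69, SE 0.16, adjusted p = 0.003) and 1.53-fold higher at E18.5 (0.61, adjusted p = 0.00435). The first of these had an adjusted p of 0.0102 without E15.5 replicate 4. The other had 0.0112, 0.0126 and 0.0125 without E18.5 replicates 1, 3 and 4. E18.5 versus E15.5 gave -0.08 (95% interval -0.43 to 0.28, adjusted p = 0.72), and 0.09 with median scaling. A second Sox8 probe was detected on 2 arrays, both at E18.5, and its stages overlapped. With the mean over both probes, Sox8 changed relative to E12.5 by 0.35 at E15.5 (limma adjusted p = 0.0177) and by 0.41 at E18.5 (0.00533).

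Of 7 genes of the oligodendrocyte lineage, 6 were tested. From E15.5 to E18.5, 5 were higher and 0 lower, beside 19.9% and 21.3% of all tested probes, with a median log2 fold change of 1.003 against -0.05 over all tested probes. Olig2, Nkx2-2 and Cspg4 were detected on 0 arrays before E18.5 and on 1, 3 and 2 arrays there. The median and the count of 5 thus include changes that start from background, among them that of Pdgfra. The bHLH factor Olig1 rose by 4.84 (SE 0.28, adjusted p = 1.71e-08) after a rise of 2.07 in the earlier interval. Pdgfra, the growth factor receptor of oligodendrocyte precursors, averaged 8.76 at E18.5, was undetected at E15.5, and was detected on 3 arrays at E12.5. Mbp, a myelin protein, changed by -0.56 and then by 0.86. The exception, Cspg4, the proteoglycan NG2, changed by 0.27 in the later interval (adjusted p = 0.0907).

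Of 8 astrocyte genes 7 were tested, and from E15.5 to E18.5, 3 rose and 2 fell. Over all tested probes, 19.9% were higher and 21.3% lower in this interval, so the share that fell was near that of all probes. The higher ones were Gfap, Aldh1l1 and Aqp4, detected on all 4 E18.5 arrays. Before E18.5, Gfap and Aqp4 were detected on 0 arrays and Aldh1l1 on 1, at E15.5, so these rises start at or near background. Those that fell were the nuclear factor I genes Nfia (-0.64, SE 0.11) and Nfib (-0.43, SE 0.10). Slc1a3, a glutamate transporter, rose by 1.04 in the earlier interval and Fabp7, a fatty-acid-binding protein of radial glia, changed by 0.33 (adjusted p = 0.547).

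**Figure D4:**
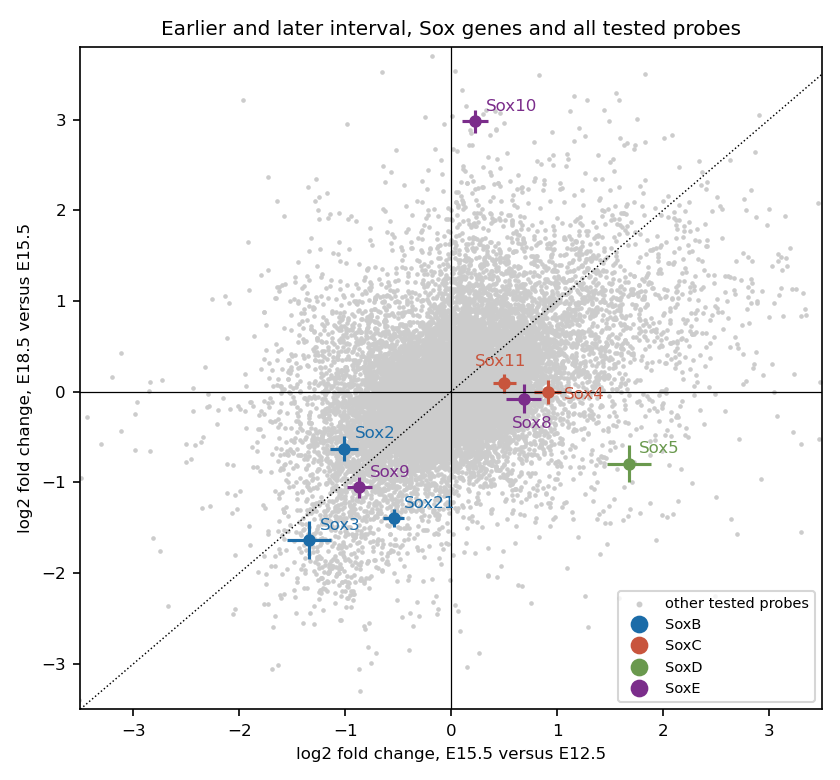
Log2 fold change of E18.5 versus E15.5 (y axis) against E15.5 versus E12.5 (x axis), with SE bars, for the 9 detected Sox genes over all tested probes in grey. The dotted line marks equal change in both intervals; Sox5 is at 1.68 and -0.79, Sox10 at 0.23 and 2.98, and the SoxB genes and Sox9 are negative on both axes. Sox10 was undetected at E12.5 and E15.5, and Sox3 at E18.5.

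Within a Sox group, changes of 2 genes were compared as the difference of their log2 values per array, in 11 tests over pairs whose genes were both detected at the stages compared. With 4 arrays against 4, an exact two-sided permutation test cannot go below p = 0.0286, and after Benjamini-Hochberg adjustment over the 11 tests the smallest p was 0.0524, so none passed 0.05. In SoxB, Sox2 fell by 0.47 more than Sox21 in the earlier interval and by 0.77 less in the later one, and Sox3 fell by 0.80 more than Sox21 in the earlier interval (exact p = 0.0286 and adjusted p = 0.0524 in each). The change of Sox3 minus that of Sox21 was -0.39 without background correction and in the authors' processed values, and -0.92 to -0.52 with 1 array left out. The change of Sox2 minus that of Sox3 was 0.33 (exact p = 0.114, adjusted p = 0.126), 0.0016 without background correction and in the authors' processed values, and 0.13 to 0.45 with 1 array left out. In SoxC, the change of Sox4 minus that of Sox11 was 0.41 by E15.5 (exact p = 0.114, adjusted p = 0.126) and -0.10 from E15.5 to E18.5 (exact p = 0.286). In SoxE, Sox8 minus Sox9 was 1.55 in the earlier interval, 0.98 in the later one and 2.53 over both (exact p = 0.0286 and adjusted p = 0.0524 in each). Without background correction, 7 of these tests had an adjusted p of 0.0449. By group, median log2 fold changes from E12.5 to E18.5 were -1.94 over 3 SoxB genes, 0.75 over 2 SoxC genes and 0.61 over 3 SoxE genes, whose own range was -1.92 to 3.21, beside 0.88 for Sox5.

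Other Sox genes on the array add to the picture of the family. Of 10 further members, 5 were detected. Sox12, also a SoxC gene, read a mean of 12.46 at E12.5, 12.45 at E15.5 and 12.46 at E18.5, with a change of 0.00 over the whole period (log2, SE 0.09). Sox13, also a SoxD gene, changed by -0.69 and then by -1.62 (adjusted p = 0.000363 and 1.88e-07). The SoxF genes Sox7 and Sox18, known from endothelium, rose by 0.63 and 0.77 by E15.5 (adjusted p = 0.00355 and 6.27e-05) and changed by 0.11 and 0.02 afterwards. The other detected SoxF gene, Sox17, was detected on 0 arrays at E12.5, 1 at E15.5 and 4 at E18.5, and its changes of 0.45 and then 0.39 passed in neither interval (adjusted p = 0.0207 and 0.0437). The endothelial sum (4 of 5 markers detected, Kdr on no array) was between 322 and 471 at E12.5, between 899 and 962 at E15.5, and between 1141 and 1325 at E18.5, and its part in these rises was not tested.

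For 1 gene of each group, chosen by the highest mean signal of its probe, the genes of most similar profile over the 12 arrays were sought among 10661 other tested genes, by Pearson's r. They were Cenpa, Pcgf5 and Etl4 for Sox21 (r = 0.997 each), and Hat1, Zfp36l1 and Araf for Sox9 (0.995 to 0.997). For Sox5 they were Ly6g6e, Fam210b and Cldn3 (0.990 to 0.991), and for Sox11 Cyria, Crym and Trnp1 (0.988 each). The arrays share stages, and E12.5 replicate 4 enters each r, so these values describe the likeness of the profiles only.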

How the data were processed

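Cortical RNA of 12 samples was hybridized to Illumina mouse WG-6 v2.0 arrays. The authors deposited, per probe and array, an intensity (mean bead signal, not normalized) and a detection p-value, and a table of log2 values that equals the quantile-normalized log2 signals (largest difference 5e-09, median 6.51). Lumi is named in the submitters' processing notes (version not given in the sources used here). All columns were mapped to samples by name.

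Signals were background-corrected and quantile normalized with neqc in limma 3.58.1 (R 4.3.3, offset 16) and put on the log2 scale. The 19652 probes (43.4%) that 1 or more arrays detected (p under 0.01) were fitted together over 12 arrays, 1 mean for each stage, with Benjamini-Hochberg adjustment within each comparison. All adjusted p of genes come from limma. The model was tested on simulated data. Symbols came from the platform's annotation (34885 probes have 1, 18 several, 10378 none), and promoters from RefSeq. All 10 members are named, and up to 4 genes of highest mean per further list, except where a count of 5 or fewer or a gene standing apart is named after its values were seen. The members and lists were chosen with earlier results of these data known. Same-numbered arrays of different stages deviated with r from -0.33 to 0.27, so numbers were not used as pairs. Alternatives were other background corrections, normalizations, filters, probe summaries, thresholds, weights, tests, a replicate block and left-out arrays.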

Additional observations from a re-analysis of the deposited data

Results flagged for a closer look

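By Dixon's test within a stage (4 arrays), 8 of 66 groups of Sox probe values had an array far from the others, where chance alone flags about 1 in 20, and 3 of the 8 were on E12.5 replicate 4. On that array Sox5 was at 11.02 on its brightest probe, against 9.88 to 9.89 on the other arrays of the stage, and at 11.05 on ILMN_2631143, against 9.77 to 9.95. Sox11 was at 14.15 there, against 13.66 to 13.70.

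On E18.5 replicate 1, Sox4 was at 12.67, against 12.57 to 12.59 on the other arrays, and Sox5 at 10.85, against 11.11 to 11.13. Among further probes, ILMN_1213910 of Sox5 was at 4.95 on E18.5 replicate 4, against 6.10 to 6.25, the second Sox2 probe at 8.45 on E15.5 replicate 2, against 7.64 to 7.67, and the second Sox8 probe at 5.66 on E15.5 replicate 3, against 5.17 to 5.25.

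The log2 change after E15.5 differed from the change before it for 4 genes by the limma contrast. The later change minus the earlier one was -0.85 for Sox21, -0.92 for Sox4, -2.47 for Sox5 and 2.75 for Sox10 (n = 4 arrays per stage). Sox10 was undetected at E12.5 and E15.5, so its earlier change compares background values and the size of its difference depends on the background. That difference was 1.95 with an offset of 50 and 1.55 without background correction.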

How the results depend on the processing

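No called change turned its sign under any alternative run. Of the comparisons of single genes and pairs with an alternative, 1032 kept their side of the threshold, 46 gained a call and 31 lost one. In E15.5 versus E12.5, the count of Sox genes called lower was 2. It was 0 without background correction and in the authors' processed values, and 1 with an offset of 50, median scaling or the methods' t-test, and 4 with no minimum fold. The authors' processed values equal those without background correction (largest difference 5e-09), so wherever both are named they are 1 check. The count called higher, 1, was 2 with median scaling or array weights, 3 at a minimum of 1.5-fold and 4 with no minimum fold. In E18.5 versus E15.5, 5 genes rather than 3 were lower at 1.5-fold or with no minimum fold, and 2 without background correction, in the authors' processed values or with an offset of 50 (Sox3 not called) and with cyclic loess (Sox9 not called). In E18.5 versus E12.5, the count called higher, 1, was 2 with median scaling, 3 with cyclic loess or array weights, 5 at 1.5-fold or with no minimum fold, and 2 without replicate 4 of both E12.5 and E15.5, an alternative chosen after seeing the data. The cause was not tested.

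Leaving out each array in turn gave 1 to 2 genes higher and 1 to 2 lower in E15.5 versus E12.5, 1 higher and 2 to 3 lower in E18.5 versus E15.5, 1 to 2 higher and 4 lower in E18.5 versus E12.5, and 1 higher and 1 to 4 lower for the difference between intervals. The count lower for that difference was 1 without E15.5 replicate 1 or 3. Median scaling moved the median change of all tested probes from E12.5 to E18.5 to 0.13, against -0.07. The interval difference of Sox4 had an adjusted p of 0.0197 with cyclic loess and 0.0149 with no detection filter, and that of Sox21 0.0673 with the mean over probes. With the replicate number as a block, that of Sox4 had 0.0112, the pairing changed no other Sox call, and probes past 2-fold and the adjusted p numbered 2359 rather than 2369 in E15.5 versus E12.5 and 1964 rather than 2130 for the interval difference. Dim probes (Sox3, Sox10, second Sox8) have bounds only at stages where they were undetected.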
